A study of Zea mays with 16 samples.

Results

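The 4 maize genes described here are annotated as relatives of CONSTANS, a flowering-time regulator, and were followed in guard cells and subsidiary cells by day and by night. They are Zm00001d051684 and Zm00001d046925, both described as C2C2-CO-like, Zm00001d045735, described as Constans1, and Zm00001d012441, described as CCT. They are 4 of the 38179 genes deposited. They were chosen from measured values of these libraries, out of 14 genes whose description opens with C2C2-CO-like, Constans1, CONSTANS, CONSTANS-like, CCT or B-box. In the limma fit used here, Zm00001d051684 and Zm00001d012441 were past the threshold between guard and subsidiary cells by day, and Zm00001d046925 and Zm00001d045735 between day and night in guard cells. The authors' deposited table calls partly other comparisons, among them Zm00001d012441 by night and not by day. B-box genes aside, the 4 are all those of the 14 that limma called in any comparison. Which of these values weighed in the choice is not known. All are therefore treated below as lying behind it, and the differences of the 4 genes are given as descriptions. Where a limma p of theirs is printed, it comes from the fit over all genes and supports nothing on its own.

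All plants were seedlings of the maize inbred B104, 2 weeks old, grown with 16 h of light at 25 °C and 8 h of darkness at 22 °C. Epidermis was taken from leaf number 3, and guard cells or subsidiary cells were cut out by laser microdissection. In grasses the guard cells are the dumbbell-shaped pair around the stomatal pore, and the subsidiary cells are the flanking cells that exchange ions and water with them. The 4 groups were guard cells by day, subsidiary cells by day, guard cells by night and subsidiary cells by night, with 4 libraries each from 4 independent collections. Day material was collected 2 h after the lights came on and night material 2 h after they went off, so light, temperature and time of day changed together and cannot be told apart. Titles of the night subsidiary libraries carry a day-like word, whereas their treatment labels and library names give night, and night was used. RNA came from about 1500 cells per tube, 2 tubes per sample, and was amplified from about 10 pg. Of cut-out cells, fewer cells of a type and less RNA per cell cannot be told apart.

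CONSTANS was first described in Arabidopsis as a nuclear protein with B-box zinc fingers at its start and a CCT domain near its end. In that species it is made in leaves in a daily rhythm and is degraded in darkness through the COP1 and SPA proteins. It switches on FLOWERING LOCUS T, whose product moves to the shoot tip and triggers flowering. The CCT domain is shared with clock proteins of the PRR family and is a contact for NF-Y subunits, which bind DNA. In rice the CONSTANS relative is Hd1, and a CCT protein without B-boxes, Ghd7, delays flowering. In maize, a CONSTANS relative named constans of Zea mays has a transcript rhythm that depends on day length. The wider family that holds the maize relatives of FLOWERING LOCUS T carries the name ZCN. In Arabidopsis, CONSTANS and FLOWERING LOCUS T have also been linked to light-induced stomatal opening through guard cells. The deposited descriptions hold only an opening word, so which of these roles each of the 4 maize genes has is not given in the sources used here. Their sequences were not used here.

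The 16 libraries held 16586047 to 28868308 reads assigned to genes. Values are the deposited normalised counts, that is, reads divided by a size factor for each library, which are comparable between libraries but not per length of gene. The mean Spearman correlation with the other libraries was 0.648 for night guard replicate 4 and 0.676 for day subsidiary replicate 1, and 0.713 to 0.764 for the other 14. Results that rest on either of these libraries are given with and without them. Whether the replicates came from separate plants is given only as independent collections, and p-values measure the spread between these libraries.

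Zm00001d051684 was far more abundant in guard cells than in subsidiary cells by day. It stood at 10155, 5843, 9511 and 7264 normalised counts in day guard cells, against 1384, 1137, 985 and 463 in day subsidiary cells. The lowest guard library was above the highest subsidiary library by a wide margin, and the groups did not overlap. The means were 8193 ± 1998 in guard cells and 992 ± 389 in subsidiary cells (SD, n = 4 each), a ratio of 8.26. On the log2(normalised count + 1) scale used for every fold change below, guard cells were higher by 3.12 ± 0.45 (SE), at the 98.55th percentile of all genes tested. This difference was among the values behind the choice.

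By night the gene stood at 3040, 4466, 5093 and 1012 normalised counts in guard cells, against 884, 662, 767 and 1170 in subsidiary cells. Guard replicates 1, 2 and 3 lay above every subsidiary library, and guard replicate 4 fell among the subsidiary values. The means were 3403 ± 1810 in guard cells and 871 ± 219 in subsidiary cells (SD, n = 4 each), a ratio of 3.91. The difference of 1.76 ± 0.45 (SE, log2) was not past the threshold in limma (adjusted p = 0.160, over 37759 genes). Without guard replicate 4 the night guard mean was 4199 ± 1052 (SD, n = 3), the difference was 2.27, and the limma adjusted p was 0.00906. The part of that library's quality in the result was not tested.

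Set by time of day, Zm00001d051684 was higher by day in guard cells, and its 4 day values did not overlap its 4 night values. The ratio of the means was 2.41 and the difference 1.47 ± 0.45 (SE, log2), given without a test. Without night guard replicate 4 the difference was 0.96. In subsidiary cells the day and night values overlapped, with a ratio of 1.14 and a difference of 0.11. The order of the means was therefore day guard cells, night guard cells, day subsidiary cells and night subsidiary cells. Of the neighbours in that order, day and night guard cells did not overlap, night guard cells met the subsidiary range through replicate 4 only, and the subsidiary groups lay within each other's spread.

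Zm00001d046925, the other C2C2-CO-like gene, followed the time of day in both cell types. In guard cells it stood at 10867, 4332, 8211 and 7377 normalised counts by day, against 986, 1112, 1562 and 222 by night. Every day library was above every night library. The means were 7697 ± 2692 by day and 971 ± 557 by night (SD, n = 4 each), a ratio of 7.93 and a log2 difference of 3.22 ± 0.48 (SE), at the 99.07th percentile of all genes. Without night guard replicate 4 the night mean was 1220 ± 302 (SD, n = 3) and the log2 difference was 2.61. This difference too was among the values behind the choice.

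In subsidiary cells Zm00001d046925 stood at 3033, 3349, 6223 and 2878 normalised counts by day, against 880, 1419, 1504 and 1124 by night. The groups did not overlap, and replicate 3 was the highest day library. The means were 3871 ± 1580 by day and 1232 ± 285 by night (SD, n = 4 each), a ratio of 3.14. The difference of 1.61 ± 0.48 (SE, log2) had an adjusted p of 0.141 in limma, which is not past the threshold. That limma p was 0.0253 when only the subsidiary libraries entered the fit, and 0.0125 without night guard replicate 4, a library of the other cell type that shares the estimate of the spread.

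Between cell types Zm00001d046925 overlapped at both times. By day the guard to subsidiary ratio of means was 1.99 (log2 difference 0.99 ± 0.48 SE), and by night it was 0.788 (log2 difference -0.62 ± 0.48 SE). The order of the means was day guard cells, day subsidiary cells, night subsidiary cells and night guard cells. Only the step between day subsidiary cells and night subsidiary cells separated neighbours without overlap.

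Zm00001d045735, the gene described as Constans1, was also higher by day in guard cells. It stood at 2648, 1092, 1010 and 1548 normalised counts in day guard cells, against 371, 379, 380 and 269 in night guard cells. All 4 day values were above all 4 night values, and day replicate 1 was the highest. The means were 1574 ± 754 by day and 350 ± 54.1 by night (SD, n = 4 each), a ratio of 4.50 and a log2 difference of 2.07 ± 0.44 (SE), at the 96.26th percentile. Without night guard replicate 4 the other 3 night values gave 377 ± 4.57 (SD, n = 3).

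In subsidiary cells Zm00001d045735 stood at 678, 815, 1434 and 460 normalised counts by day, against 737, 265, 549 and 1059 by night. The groups overlapped over most of their range. The means were 847 ± 418 by day and 653 ± 333 by night (SD, n = 4 each), a ratio of 1.30. The difference of 0.42 ± 0.44 (SE, log2) was within the spread (limma adjusted p = 0.813). Guard and subsidiary cells overlapped both by day, with a ratio of 1.86, and by night, with a ratio of 0.535. The order of the means was day guard cells, day subsidiary cells, night subsidiary cells and night guard cells, and each neighbouring pair overlapped.

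Zm00001d012441, described as CCT, followed the cell type and showed little difference between day and night in guard cells. By day it stood at 778, 860, 597 and 662 normalised counts in guard cells, against 789, 23.2, 69.0 and 45.0 in subsidiary cells. Subsidiary replicate 1 lay among the guard values, and the other 3 subsidiary libraries were far below every guard library. The means were 724 ± 118 in guard cells and 232 ± 372 in subsidiary cells (SD, n = 4 each), a ratio of 3.13, and without subsidiary replicate 1 the subsidiary mean was 45.7 ± 22.9 (SD, n = 3). The log2 difference was 3.02 ± 0.74 (SE), and 4.07 without that library. It is a mean of log values, and on the reads themselves edgeR put it at 1.66 and DESeq2 at 1.64.

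By night Zm00001d012441 stood at 560, 841, 921 and 341 normalised counts in guard cells, against 134, 61.5, 108 and 83.4 in subsidiary cells. Every guard library was above every subsidiary library. The means were 666 ± 266 in guard cells and 96.7 ± 31.2 in subsidiary cells (SD, n = 4 each), a ratio of 6.89. The difference of 2.73 ± 0.74 (SE, log2) had a limma adjusted p of 0.190, which is not past the threshold. Without day subsidiary replicate 1, a library outside this comparison that shares the estimate of the spread, that p was 0.0297. In guard cells day and night overlapped, with a ratio of 1.09 and a log2 difference of 0.21 ± 0.74 (SE). In subsidiary cells they overlapped too: the ratio of means was 2.40, through replicate 1, while the difference of mean logs was -0.08. The order of the means was day guard cells, night guard cells, day subsidiary cells and night subsidiary cells, and each neighbouring pair overlapped, that of night guard cells and day subsidiary cells through subsidiary replicate 1 alone.

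**Figure D1:**
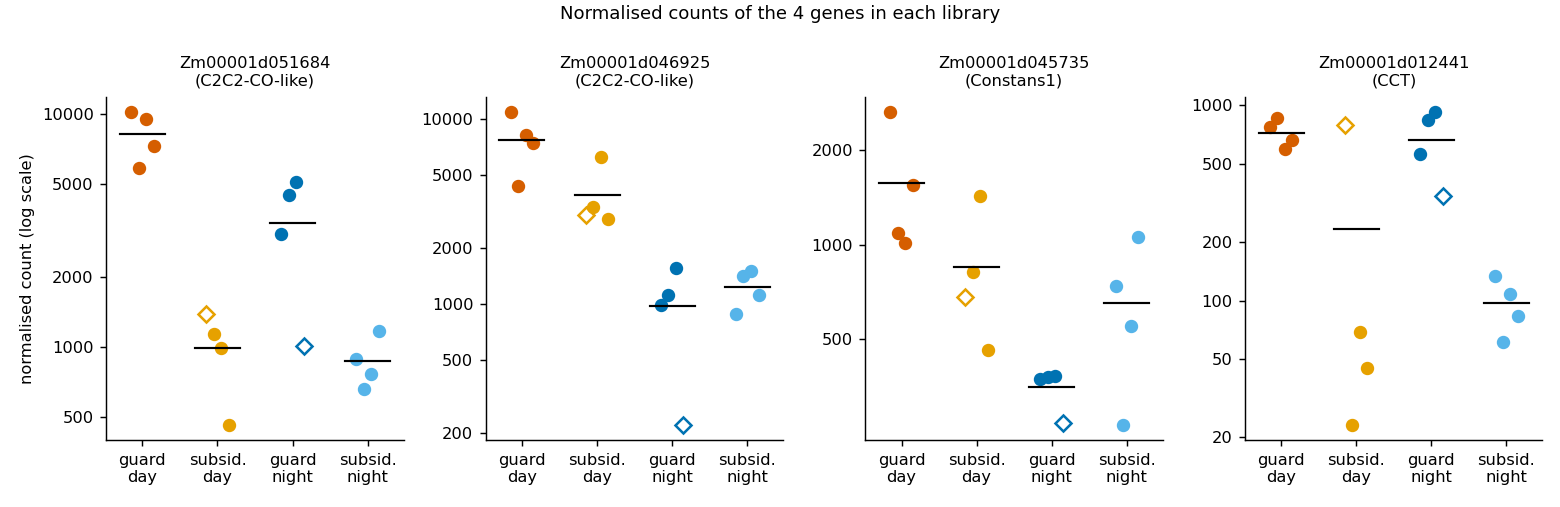
Normalised counts (log scale) of the 4 genes in each of the 16 libraries, by group, with a line at each group mean. White diamonds are night guard replicate 4 and day subsidiary replicate 1, the libraries of lowest correlation. Zm00001d051684 and Zm00001d012441 lie higher in guard cells, and Zm00001d046925 and Zm00001d045735 lie higher in day than in night guard cells.

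Counted over comparisons with limma, 2 of the 4 genes were called higher in guard cells by day, where 0.943% of all genes tested were called higher. Another 2 of the 4 were called higher by day in guard cells, where 0.747% were called higher. Since such calls lie behind the choice of the genes, nothing is read from them. Between guard cells and subsidiary cells by night, 0 of the 4 were called by limma, against a background of 0.0291%, while 2 had an unadjusted p under 0.05. At night edgeR called 0 and DESeq2 called 2, namely Zm00001d051684 and Zm00001d012441, beside 610 of the 37759 genes tested. With the replicate number added to the limma fit as a block, 2 of the 4 again had an unadjusted p under 0.05. At night 3219 of all genes tested did. In the comparison of day with night in subsidiary cells, limma called 0 of the 4, against a background of 1.22%, with 1 at an unadjusted p under 0.05. There edgeR called 0 and DESeq2 called 1, Zm00001d046925, beside 1334 of all genes tested. With the block 1 of the 4 again had an unadjusted p under 0.05 there, beside 4253 of all genes tested. By non-overlapping groups, 1 of 4 genes was higher in guard cells by day and 1 by night, where 4.27% and 2.53% of all genes were. Day values lay wholly above night values for 3 of 4 in guard cells and 1 of 4 in subsidiary cells, where 3.49% and 4.25% of all genes did.

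**Figure D2:**
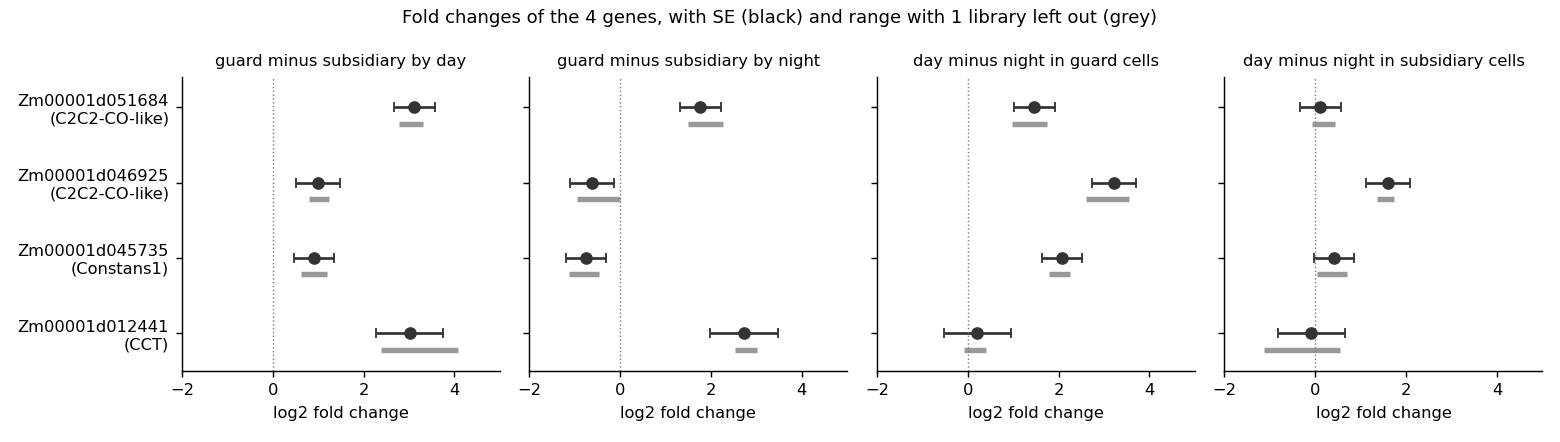
Differences on the log2(normalised count + 1) scale for the 4 genes in each comparison, with the standard error, and grey bars for the range when any 1 library is left out. The largest differences are 3.22 for Zm00001d046925 between day and night in guard cells and 3.12 for Zm00001d051684 between guard and subsidiary cells by day.

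The interaction is the guard minus subsidiary difference by day less that by night. It holds libraries that lie behind the choice of the genes and is given as a description. It was 1.36 ± 0.64 (SE, log2) for Zm00001d051684, 1.61 ± 0.69 for Zm00001d046925, 1.65 ± 0.63 for Zm00001d045735 and 0.29 ± 1.05 for Zm00001d012441. Limma called 0 of the 4, and 3 had an unadjusted p under 0.05, beside 2533 of the 37759 genes tested. Both edgeR and DESeq2 called 0 of the 4, with 1 each at an unadjusted p under 0.05. Over all genes tested, 3024 in edgeR and 3546 in DESeq2 had such a p. Over all genes limma called 0%, edgeR called 1 gene and DESeq2 149. For the Constans1 gene and both C2C2-CO-like genes the day minus night values were larger in guard cells than in subsidiary cells, and for none of them was that difference called. With any 1 library left out, the interaction ranged from 0.85 to 1.63 for Zm00001d051684, 1.00 to 1.94 for Zm00001d046925 and 1.36 to 2.03 for Zm00001d045735. The lowest values of both C2C2-CO-like genes came without night guard replicate 4.

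The deposited table also holds the authors' own DESeq2 results, which run subsidiary over guard and night over day, so their signs are opposite. They may have weighed in the choice of the genes and are given as descriptions. In the authors' deposited table Zm00001d051684 had a log2 fold change of -2.91 by day (adjusted p = 1.70e-08) and -1.74 by night (adjusted p = 0.00384), subsidiary over guard. In the authors' deposited table Zm00001d046925 had -2.83 in guard cells (adjusted p = 2.77e-07) and -1.37 in subsidiary cells (adjusted p = 0.0233), night over day. The authors' deposited table gives Zm00001d045735 at -1.96 in guard cells (adjusted p = 0.00057) and -0.18 in subsidiary cells (adjusted p = 0.816), night over day. For Zm00001d012441 the authors' deposited table has -0.77 by day (adjusted p = 0.245) and -2.29 by night (adjusted p = 0.0257), subsidiary over guard. The authors' values thus call the CCT gene by night and not by day, whereas limma on log values called it by day and not by night. Over all genes the authors' deposited table calls 4.53% between cell types by day, 1.65% by night, 3.01% between times in guard cells and 3.62% in subsidiary cells.

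Ratios of both C2C2-CO-like genes within a library do not depend on its size factor. Zm00001d046925 over Zm00001d051684 was 1.07, 0.741, 0.863 and 1.02 in day guard cells, against 2.19, 2.95, 6.32 and 6.21 in day subsidiary cells. By night the ratio was 0.325, 0.249, 0.307 and 0.220 in guard cells, against 0.996, 2.14, 1.96 and 0.961 in subsidiary cells. Each subsidiary library was above each guard library of the same time, and each day guard library was above each night guard library. Day subsidiary ratios were above night subsidiary ratios in all 4 libraries each, by a narrow margin. Night guard replicate 4, which had the lowest night guard count of all 4 genes, had a ratio of 0.220 beside 0.249 to 0.325 in the other 3. These ratios follow from the values behind the choice and are given as a description. As gene lengths differ, only their change between libraries can be read, not which gene is the more abundant.

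**Figure D3:**
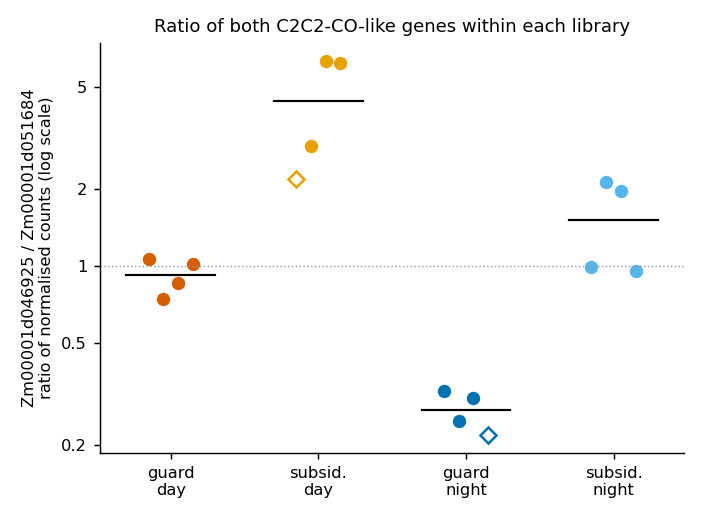
Ratio of normalised counts of Zm00001d046925 over Zm00001d051684 within each library (log scale), by group, with a line at each group mean and white diamonds for the libraries of lowest correlation. Subsidiary cells lie above guard cells at both times, and night guard cells are lowest, at 0.220 to 0.325.

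Other pairs moved differently. Zm00001d045735 over Zm00001d046925 had a median of 0.227 in day guard cells and 0.227 in day subsidiary cells, and of 0.358 in night guard cells and 0.601 in night subsidiary cells. The Constans1 gene and this C2C2-CO-like gene therefore stood in about the same proportion in both cell types by day. The day ranges were 0.123 to 0.252 in guard cells and 0.160 to 0.243 in subsidiary cells. By night the ranges also overlapped, at 0.243 to 1.21 in guard cells and 0.187 to 0.942 in subsidiary cells. The highest value was that of night guard replicate 4. Zm00001d012441 over Zm00001d051684 was 0.0627 to 0.147 in day guard cells, 0.0204 to 0.570 in day subsidiary cells, 0.181 to 0.337 in night guard cells and 0.0713 to 0.151 in night subsidiary cells. The night guard range of this CCT ratio lay above the ranges of day guard cells and night subsidiary cells.

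The genes whose log values followed each member most closely over the 16 libraries were sought among 30355 genes, as Pearson's r. For Zm00001d051684 they were GRMZM5G851130 (r = 0.979), Zm00001d017281 (r = 0.969) and Zm00001d012925 (r = 0.964). For Zm00001d046925 they were Zm00001d032728 (r = 0.950), Zm00001d006256 (r = 0.940) and Zm00001d032797 (r = 0.938). For Zm00001d045735 they were Zm00001d040263, Zm00001d007761 and Zm00001d009156, at an r of 0.848, 0.838 and 0.825, and for Zm00001d012441 they were Zm00001d041143, Zm00001d018842 and GRMZM5G884707, at 0.930, 0.917 and 0.905. None of the other 3 members was among them. All points share the libraries and their size factors, and the 4 groups alone set much of such a correlation.

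The 4 genes were 4 of 14 with such a description. B-box genes aside, they are all those of the 14 that limma called in any comparison. The lack of limma calls among the others therefore goes with the choice, and nothing is read from it. Of the other 10, 0 were called by limma between guard and subsidiary cells by day, 0 by night and 0 between times in subsidiary cells, with 1, 0 and 2 at an unadjusted p under 0.05. In those comparisons edgeR called 0, 0 and 0, and DESeq2 called 0, 0 and 2, beside 1639, 610 and 1334 of the 37759 genes tested. With the replicate number as a block in limma, 2, 0 and 2 of the 10 had an unadjusted p under 0.05. Of all genes tested, 4648, 3219 and 4253 had. Between day and night in guard cells limma called 1 of the 10 higher by day, the B-box gene Zm00001d015434, where 0.747% of all genes were. Day was above night in 7 of the 10 in guard cells (median log2 difference 0.97) and in 9 of the 10 in subsidiary cells (median 0.76), where the medians of all genes tested were -0.01 and -0.03. Guard cells were above subsidiary cells in 6 of the 10 at either time, with a median of 0.34 by day and 0.55 by night, beside 0 for all genes.

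The B-box gene Zm00001d015434 belongs to a class of zinc-finger proteins that in Arabidopsis act in light signalling. It stood at 333, 442, 221 and 275 normalised counts in day guard cells, against 35.8, 0, 0 and 3.43 in night guard cells. In subsidiary cells it stood at 55.5, 184, 111 and 333 by day, against 11.7, 20.2, 8.72 and 0.684 by night. Every day library was above every night library in both cell types. It was higher by day by 6.43 ± 1.11 in guard cells (SE, log2, limma adjusted p = 0.00572) and by 4.11 ± 1.11 in subsidiary cells (adjusted p = 0.0868). The guard value depends on the pseudocount, as 2 night libraries were at 0, and edgeR gave 4.95 with an adjusted p of 0.0898. The C2C2-CO-like gene Zm00001d029149 stood at 188, 346, 504 and 566 in day subsidiary cells, against 68.4, 44.0, 97.6 and 39.7 in night subsidiary cells, without overlap (log2 difference 2.64 ± 0.79 SE, limma adjusted p = 0.138).

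**Figure D4:**
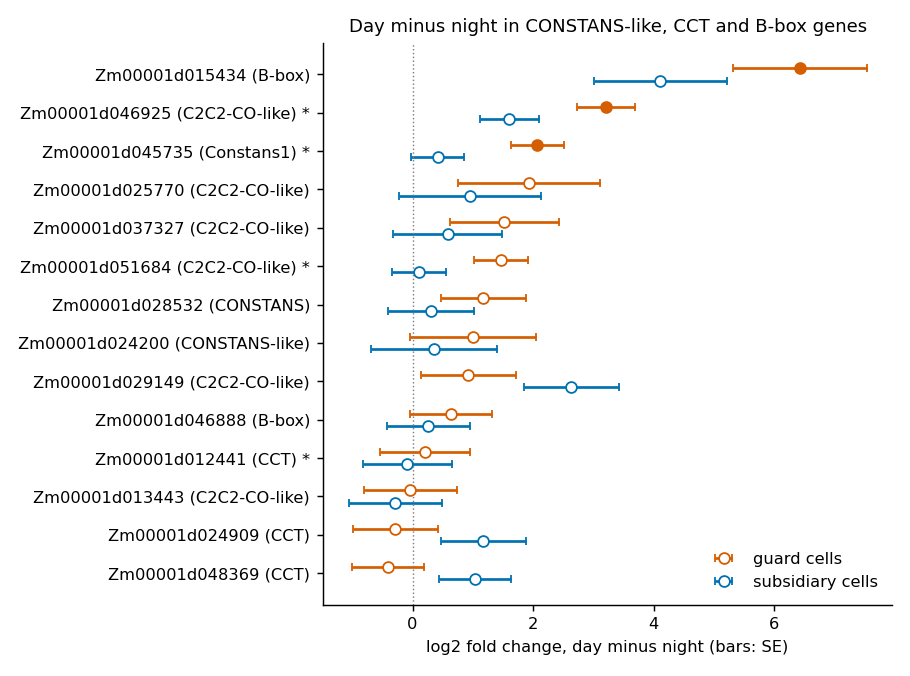
Day minus night differences on the log2(normalised count + 1) scale, with the standard error, for all 14 genes described as C2C2-CO-like, Constans1, CONSTANS, CONSTANS-like, CCT or B-box, in guard cells (orange) and subsidiary cells (blue). Filled symbols have a limma adjusted p under 0.05 and stars mark the 4 chosen genes, and the B-box gene Zm00001d015434 has the largest difference, 6.43 in guard cells.

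Partners of CONSTANS were taken from the same descriptions. As candidates for its targets 14 genes were listed, 13 named ZCN and 1 described as phosphatidylethanolamine-binding. These words cover the wider family that holds FLOWERING LOCUS T, and which of the 14 are its closest relatives was not examined. Limma called 1 of the 14 higher by day in guard cells, where 0.747% of all genes were. It called 0 in the other 3 comparisons, with 3 (cell types by day), 1 (cell types by night) and 1 (times in subsidiary cells) at an unadjusted p under 0.05. There edgeR called 0, 0 and 0, and DESeq2 called 3, 0 and 0, beside 1639, 610 and 1334 of the 37759 genes tested. With the replicate number as a block in limma, 3, 1 and 1 again had an unadjusted p under 0.05. Of all genes tested, 4648, 3219 and 4253 had. The called gene, Zm00001d010752, stood at 3276, 252, 259 and 413 normalised counts in day guard cells, against 13.7, 74.6, 47.9 and 66.1 in night guard cells. The groups did not overlap, and day replicate 1 was far above the rest. The day minus night difference was 3.64 ± 0.74 (SE, log2, limma adjusted p = 0.0201), and without day guard replicate 1 it was 2.78 (adjusted p = 0.0779). The call ended too without night guard replicate 1 (3.12, adjusted p = 0.0693) and with only the guard libraries in the fit (adjusted p = 0.117).

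Phytochromes and cryptochromes are the sensors of red and blue light. Of 6 genes with such a description, 5 for phytochrome and 1 for cryptochrome, limma called 0 between cell types at either time and 0 between times in guard cells, each also with 0 at an unadjusted p under 0.05. Both edgeR and DESeq2 called 0 in those 3 comparisons too. With the replicate number as a block in limma, 0, 0 and 1 had an unadjusted p under 0.05. Of all genes tested, 4648, 3219 and 3760 had. The cryptochrome gene, Zm00001d050850, stood at 335787 normalised counts in day guard replicate 4, beside 1802, 3798 and 2687 in day guard replicates 1, 2 and 3. Its log2 differences had an SE of 1.22, so the lack of a call says little about it. In subsidiary cells 1 of the 6, Zm00001d034038, described as phytochrome, was called lower by day, where 0.548% of all genes were. It stood at 153, 205, 317 and 146 normalised counts in day subsidiary cells, against 1293, 673, 698 and 531 in night subsidiary cells, without overlap. The difference was -1.94 ± 0.45 (SE, log2, limma adjusted p = 0.0370), and edgeR gave an adjusted p of 0.0518. The call also ended without day subsidiary replicates 1, 2 or 4, or without any 1 night subsidiary library (adjusted p 0.0515 to 0.140).

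The clock list held 4 genes, 2 described as circadian, 1 as ELF4-like and 1 as PRR59, the last of the CCT-bearing family. The list of NF-Y subunits and their relatives held 12 genes described by the CCAAT box. Limma called 0 of either list in each of the 4 comparisons, with 0, 1, 0 and 3 clock genes and 1, 0, 2 and 1 NF-Y genes at an unadjusted p under 0.05, in the order cell types by day, cell types by night, times in guard cells and times in subsidiary cells. In the same comparisons edgeR called 0 of either list, and DESeq2 called 1 clock gene between times in subsidiary cells, beside 1334 of all genes tested. With the replicate number as a block in limma, the unadjusted counts of both lists did not change. Of all genes tested, 4648, 3219, 3760 and 4253 had an unadjusted p under 0.05 in the same order. The CCT-bearing PRR59 gene, Zm00001d004875, had a day minus night difference of -1.23 ± 0.46 in subsidiary cells (SE, log2, adjusted p = 0.270). No description named COP1 or SPA.

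**Figure D5:**
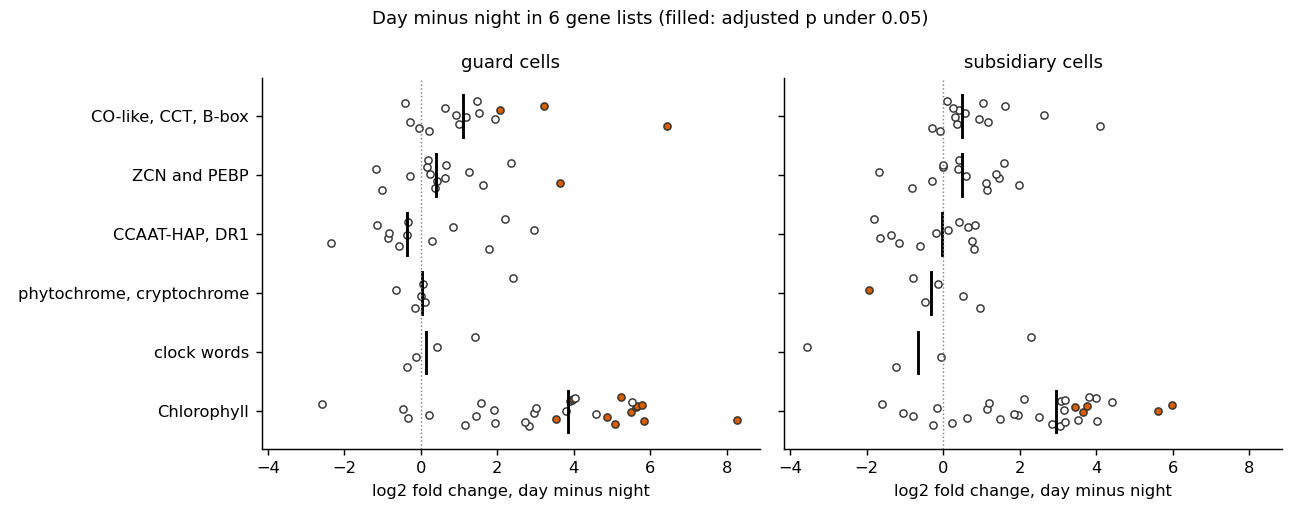
Day minus night differences on the log2(normalised count + 1) scale in guard cells and subsidiary cells for each gene of 6 lists, with a vertical bar at each list's median and filled symbols for a limma adjusted p under 0.05. Beside the genes described by chlorophyll, with 11 filled in guard cells and 5 filled in subsidiary cells, lists outside the CO-like, CCT and B-box genes have 1 filled phosphatidylethanolamine-binding gene in guard cells and 1 phytochrome, at -1.94, in subsidiary cells.

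Genes of green tissue were measured in the same libraries. The summed normalised counts of 30 genes described by chlorophyll were 32847 to 63619 in day guard cells, 9453 to 46760 in day subsidiary cells, 1699 to 8710 in night guard cells and 4205 to 10290 in night subsidiary cells. Limma called 11 of the 30 higher by day than by night in guard cells, where 0.747% of all genes were, and 5 in subsidiary cells, where 0.673% were. Between cell types limma called 0 of the 30 by day and 0 by night, with 7 and 6 at an unadjusted p under 0.05. There edgeR called 0 and 0, and DESeq2 1 and 2, beside 1639 and 610 of all genes tested. With the replicate number as a block in limma, 7 and 7 of the 30 had an unadjusted p under 0.05. Of all genes tested, 4648 and 3219 had. Genes described by carbonic or phosphoenolpyruvate were listed as mesophyll genes, and those described by malic or ribulose as bundle sheath genes. An opening word does not show which enzyme a gene encodes, so neither list is proven to mark its cell type. Sums of the 6 genes listed as mesophyll were 5738 to 10634 in day guard cells, 1064 to 7348 in day subsidiary cells, 1258 to 3753 in night guard cells and 2404 to 3648 in night subsidiary cells. Sums of the 14 genes listed as bundle sheath were 12355 to 33335, 3710 to 17391, 4543 to 18070 and 5985 to 9096 in the same order of groups. Limma called 0 of the 6 in each comparison. At an unadjusted p under 0.05 were 5 between cell types by day and 0 by night. Between times, 2 were in guard cells and 3 in subsidiary cells. With the replicate number as a block these counts were 5, 1, 2 and 3, beside 4648, 3219, 3760 and 4253 of all genes tested. EdgeR called 0 of the 6. DESeq2 called 1 lower in guard than in subsidiary cells by day. It called 1 higher by day than by night in guard cells and 2 in subsidiary cells. These DESeq2 calls stand beside 1639, 1095 and 1334 of all genes tested. Limma called 1 of the 14, higher in guard cells by day, where 0.943% of all genes were. EdgeR called 0 of the 14. DESeq2 called 1 higher in guard cells by day and 1 lower by day in subsidiary cells. No list of guard cell markers could be matched by description, so the identity of the cut-out cells rests on the labels. The part of other leaf cells in the values of the 4 genes was not tested.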

How the data were processed

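Per the labels' protocols, RNA of laser-dissected cells was amplified with SMART-Seq v4 and made into unstranded Nextera XT libraries without molecular identifiers. The authors deposited 1 table with normalised counts (signal: reads over size factors) for 16 libraries, and with their DESeq2 log2 fold changes, adjusted p-values and statistics (score columns). Per the submitters' processing notes, DESeq2 1.40.2 and B73 RefGen v4 were used; which aligner and counter were run is not given in the sources used here, and the plants were B104. Deposited columns of 62 lines had slipped by a place and were put back. All values in every library came out as whole multiples of the worth of 1 read within 0.01, so reads could be recovered. Reads of close family members may be shared in the authors' counting.

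Here log2(normalised count + 1) was fitted with limma 3.58.1 in R 4.3.3 over all 16 libraries, with 4 group means and 12 residual degrees of freedom. Genes needed a value of 10 in 4 libraries (37759 tested, 420 left out, all 14 family genes kept). Benjamini-Hochberg adjustment ran over all tested genes, and calls are at an adjusted p under 0.05. Alternatives were edgeR 4.0.16 (quasi-likelihood) and DESeq2 1.42.0 on recovered reads, other scalings, pseudocounts, filters, weights and left-out libraries. On data simulated for guard against subsidiary cells by day with 37443 genes, 13% of genes changed by 2 (log2) and 78% of those changed by 4 were called, with 6 false calls. The changed genes were drawn only from the more abundant ones, so recovery at low counts was not examined. The simulated libraries were independent, and none was set to lower quality. The members and lists were chosen with earlier results of these data known. Named are the 4 genes, the 3 genes most like each by Pearson's r, and called genes of the lists. Zm00001d029149, Zm00001d004875 and Zm00001d050850 were named after their values were seen. Lists were matched on the opening word of the deposited description, which 7482 genes have.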

Additional observations from a re-analysis of the deposited data

Results flagged for a closer look

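In 3 of the 16 combinations of the 4 genes and 4 groups, 1 library stood far from the other 3. The test divides the gap to the nearest value by the group's range and compares it with Dixon's 95% critical value for 4 samples. Chance alone would mark about 1 in 20 groups if values were normally distributed, which was not tested. It was run on normalised counts, where a high value stands further out than on the log2 scale used elsewhere here. Zm00001d046925 was at 6223 normalised counts in day subsidiary replicate 3, beside 2878 to 3349 in the other 3 (gap over range 0.859). Zm00001d045735 was at 268.5 in night guard replicate 4, beside 371 to 380 (0.924). Zm00001d012441 was at 789.4 in day subsidiary replicate 1, beside 23.2 to 69.0 (0.940). The night guard and day subsidiary libraries named here for Zm00001d045735 and Zm00001d012441 are those of lowest mean correlation with the other libraries.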

How the results depend on the processing

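Of 516 values of the 4 genes recomputed under other settings, 499 kept their direction, 478 their side of the threshold and 461 both. The changes of direction were in day minus night values of Zm00001d012441 in either cell type, in its interaction, and in day minus night values of Zm00001d051684 in subsidiary cells. For Zm00001d051684 between guard and subsidiary cells by night, the difference of 1.76 became a call with DESeq2 (1.97), with weights for library quality (2.10) and without both libraries of lowest correlation (2.27), and ranged from 1.49 to 2.27 with 1 library left out. For Zm00001d012441 by night, 2.73 became a call at 2.78, 2.88 and 3.01 under the same 3 settings, and ranged from 2.53 to 3.01. For Zm00001d046925 between day and night in subsidiary cells, 1.61 became a call with DESeq2 (1.65), with only the groups compared (1.61), with quality weights (1.62) and without both libraries (1.70), and ranged from 1.35 to 1.72. For Zm00001d012441, the day difference between cell types moved to 1.66 with edgeR and 1.64 with DESeq2, its day minus night value in subsidiary cells to 1.27 and 1.26, and its interaction turned to -1.13 and -1.14. That interaction ranged from -0.33 to 1.35 with 1 library left out. The cause was not tested.

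Of the calls behind the choice of the genes, those of Zm00001d051684 and Zm00001d046925 held in all 16 fits that leave out 1 library. That of Zm00001d045735 held in 10 of 16, and was lost without day guard replicates 1 or 4, any night guard library or both libraries of lowest correlation. That of Zm00001d012441 held in 2 of 16, without night guard replicate 4 or day subsidiary replicate 1, and was lost with edgeR, DESeq2, upper-quartile scaling and only the groups compared. Upper-quartile scaling put the median of all genes at -0.12 between day and night in guard cells, against -0.01. Quality weights, the fits without both libraries, and all recomputed values of genes outside the 4 were chosen after seeing the data. The call of the phytochrome Zm00001d034038 was lost with edgeR and without both libraries (adjusted p = 0.0677). With the replicate number as a block, Zm00001d051684 differed between cell types by day by 3.12, the calls of the 4 genes did not change, and that of Zm00001d034038 was lost (adjusted p = 0.0618). The block called 465 of all genes between cell types by day, 10 by night, 305 between times in guard cells and 386 in subsidiary cells, where the fit without it called 505, 11, 327 and 461. In the same comparisons edgeR called 343, 2, 196 and 317, and DESeq2 1639, 610, 1095 and 1334. With each group's mean taken off each gene, same-numbered libraries of different groups correlated at -0.061 to 0.0794. Among libraries of other groups, 6 of 16 correlated best with a library of their own number. Whether same-numbered libraries share a collection cannot be told from these values. Since RNA was amplified without molecular identifiers, read depth does not give the error of the molecules sampled.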
